A study of Rattus norvegicus with 49 samples.

Results

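The livers of rats given 60% less food for 14 days (the diet labelled 40% Food, group 5) were compared with those of rats fed ad libitum for the same time (group 2). Both groups were fasted overnight before necropsy, and the diet of the 14 days before set them apart. The time from the last meal to necropsy was not given and may also differ between them. The comparison used 10 of the 49 arrays of the series, taken by their labels, with 1 array per rat and 5 rats in each group. All were male Sprague-Dawley rats of about 8 to 10 weeks at the start, on powdered feed. For reference, the rats given 30% less (group 4) and 15% less food (group 3) for 14 days, and groups 5 and 2 after 4 days, were used, again 5 rats each. Values are log2 of the normalized array intensity, which depends on a gene's probes and does not rank the mRNA amounts of different genes. Differences are log2 changes, so that 1 stands for 2-fold, and are given with their standard error (SE).

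In the fasted liver, glycogen runs down, fatty acids from adipose tissue are oxidized and turned into ketone bodies, and glucose is made from lactate, glycerol and amino acids. Insulin, glucagon, glucocorticoids and the transcription factor PPAR alpha set these programs. The liver clock, a loop in which Bmal1 with Clock or Npas2 switches on its own repressors (Per, Cry and Nr1d genes), takes much of its timing from meals. When food is restricted over days, an animal tends to eat its ration early and to fast for longer, and growth hormone, thyroid hormone and sex steroid signals to the liver also change.

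Of 14217 genes tested with limma, 2816 passed an adjusted p under 0.1 (19.8%), 1263 higher with 60% less food (8.88%) and 1553 lower (10.9%). At least 2-fold changes were made by 123 of the former and 140 of the latter, and at least 4-fold ones by 14 and 24. The groups did not overlap, with every rat of one group above every rat of the other, in 1754 genes (12.3%). Over all genes the median log2 change was 0.0033 and the median absolute change 0.113. Arrays correlated at 0.989 to 0.994 within the restricted group, 0.99 to 0.994 within the controls and 0.978 to 0.988 between them. The 11 hepatocyte markers were all measured well above the dimmest quartile of probe sets, with summed intensities of 191260 to 198473 in the restricted rats and 197403 to 203222 in the controls. Of the 65 called genes named here that have a further probe set, 14 had one that did not pass the test and none had one called in the other direction. Rats were separate animals, but the paper states that they were housed in groups or in pairs. The labels do not name cage mates, so an effect of shared cages was not tested. The number of rats limits the precision of every value. In such tissue RNA, fewer cells of a type and less RNA per cell cannot be told apart.

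**Figure D1:**
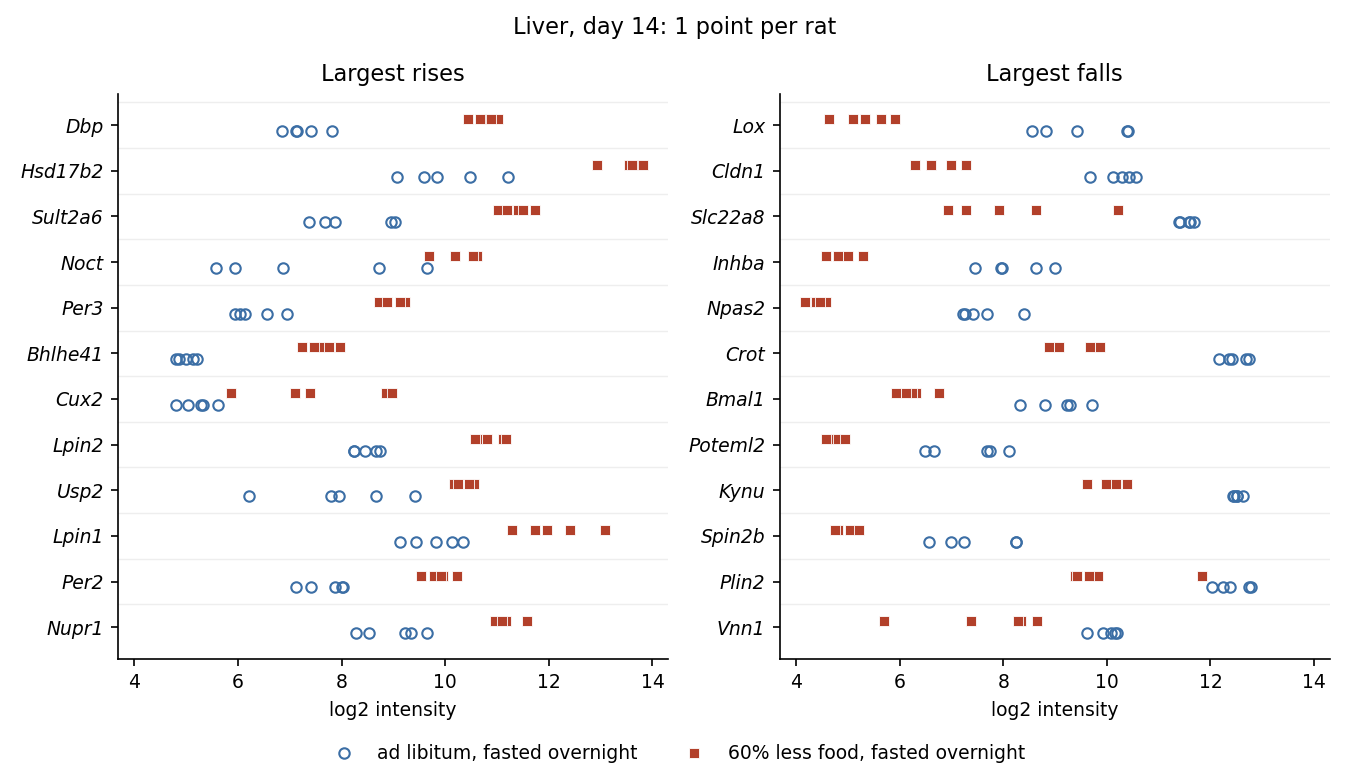
Log2 intensity (horizontal axes) of the 12 called genes that rose most and the 12 that fell most without overlap between groups, 1 point per rat (open circles, ad libitum; squares, 60% less food; both fasted overnight, day 14). The Noct groups almost touch, while for Lox the restricted rats lie between 4.64 and 5.91 and the controls between 8.56 and 10.40.

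Genes of the circadian loop stood among the largest changes. Of 15 core clock genes 9 were higher and 3 lower, and of 14 genes driven by the clock 10 were higher and none lower, with median changes of 0.925 and 1.2. Promoter sequence is shown for 3 of them, picked by hand. Each carries a letter match to an element through which the loop is known to be wired. Nr1d1 had such a match too and is not shown. RefSeq promoters (build GRCr8) were found for 8 of 9 genes looked at, and the 250 bases before the start were searched on both strands for 4 motifs. The capitals mark the matches, namely a D-box (TTATGTAA or TTACGTAA, bound by Dbp and Tef) 192 bases before the start of Per2, an E-box (CACGTG, bound by Bmal1 with its partners) 48 bases before that of Bhlhe41, and an element of ROR and Nr1d factors (AGGTCA) 15 bases before that of Bmal1. Bhlhe41 was added to the genes looked at after its values were seen.
Per2, chr9:99496994-99497243, minus strand: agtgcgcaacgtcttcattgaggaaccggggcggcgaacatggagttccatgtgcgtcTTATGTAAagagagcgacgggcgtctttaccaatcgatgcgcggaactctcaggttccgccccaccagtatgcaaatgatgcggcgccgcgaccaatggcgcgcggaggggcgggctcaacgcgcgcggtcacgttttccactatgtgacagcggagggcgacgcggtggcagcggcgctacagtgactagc
Bhlhe41, chr4:180569356-180569605, minus strand: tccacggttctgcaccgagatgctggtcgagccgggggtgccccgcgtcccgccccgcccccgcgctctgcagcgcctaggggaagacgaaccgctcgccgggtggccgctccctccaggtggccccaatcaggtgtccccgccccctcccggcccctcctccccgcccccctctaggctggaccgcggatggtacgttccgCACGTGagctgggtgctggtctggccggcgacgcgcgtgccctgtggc
Bmal1, chr1:176766078-176766327, plus strand: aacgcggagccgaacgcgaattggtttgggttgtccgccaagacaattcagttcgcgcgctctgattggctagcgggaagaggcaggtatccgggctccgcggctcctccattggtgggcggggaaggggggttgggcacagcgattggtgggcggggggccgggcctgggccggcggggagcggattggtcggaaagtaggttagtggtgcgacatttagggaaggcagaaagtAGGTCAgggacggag
Of all 33469 promoters in the table, 0.932% hold the D-box, 5.59% the E-box and 14.1% the ROR element, so that the last match says little by its presence. None of these motifs, nor the sterol element core TCACCCCA (1.14% of promoters), stood in the windows of Dbp, Per3, Npas2 and Idi1, and Nr1d1 had an E-box 191 bases before 1 of its 2 listed starts.

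Per3 and Per2 are repressors of the loop. In the 5 restricted rats Per3 had log2 intensities of 8.73, 8.87, 9.12, 9.15 and 9.22, and in the controls 5.95, 6.04, 6.13, 6.55 and 6.95. All restricted rats lay above all controls, and the difference was 2.69 (SE 0.18, adjusted p = 2.86e-06). Per2 stood at 9.53, 9.79, 9.91, 9.95 and 10.22 with restriction against 7.11, 7.41, 7.87, 8.01 and 8.02, again without overlap, a rise of 2.20 (SE 0.18, adjusted p = 1.53e-05). Other probe sets of both genes rose by less, 0.69 for Per3 and 0.37 for Per2, and also passed the test. Per1 rose by 1.40 (SE 0.22, adjusted p = 0.00159), and Cry1, another repressor, by 0.92 (SE 0.31, adjusted p = 0.067), with overlap between the groups and a call lost without any 1 of 6 of the 10 rats (adjusted p up to 0.146).

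Bhlhe41, which competes for E-boxes, had values of 7.23, 7.46, 7.60, 7.76 and 7.97 in restricted rats and 4.81, 4.86, 5.00, 5.13 and 5.21 in controls, a 6.08-fold difference. The control values sit at the edge of the dimmest quartile of probe sets, set at log2 4.94. Among the activators, Bmal1 was at 5.93, 6.13, 6.23, 6.32 and 6.75 with restriction and 8.33, 8.81, 9.23, 9.29 and 9.72 without it, with no overlap. Npas2 ended at 4.40 ± 0.15 (SD, n = 5), below that edge, from 7.59 ± 0.48 in the controls, and counted down to the edge only it fell by 2.65. Clock itself fell by 1.28 (SE 0.09, adjusted p = 3.47e-06). Nr1d2, a repressor of Bmal1, rose by 1.64 (SE 0.22, adjusted p = 0.000492), whereas Nr1d1, its paralog, was 1.21 higher without passing the test (adjusted p = 0.242), with a spread of 7.61 ± 1.65 (SD, n = 5) among the controls.

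Most measured outputs of the clock rose. Dbp, a PAR bZIP factor, rose 11.4-fold and its relative Tef by 1.27 (SE 0.11, adjusted p = 2.85e-05). Noct, which removes phosphate from NADP(H), had 9.68, 10.18, 10.54, 10.57 and 10.62 in restricted rats, and the controls were spread over 5.58, 5.95, 6.87, 8.73 and 9.64. The gap between the lowest restricted rat and the highest control was small, and the change was 2.96 (SE 0.66, adjusted p = 0.0104). Usp2, a deubiquitinase, rose by 2.37 (SE 0.44, adjusted p = 0.00389) with a similar spread of the controls (SD 1.19 against 0.17). Wee1, a cell cycle kinase under clock control, rose by 1.63 (SE 0.17, adjusted p = 7.54e-05), and Por, the electron donor of all microsomal P450 enzymes, by 1.58 (SE 0.25, adjusted p = 0.00135). Nampt, the rate-limiting enzyme of NAD salvage, rose by 1.75 (SE 0.27, adjusted p = 0.0013). The clock time of necropsy was not given in the sources used here, and a shift of phase cannot be told apart from a change in level.

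**Figure D2:**
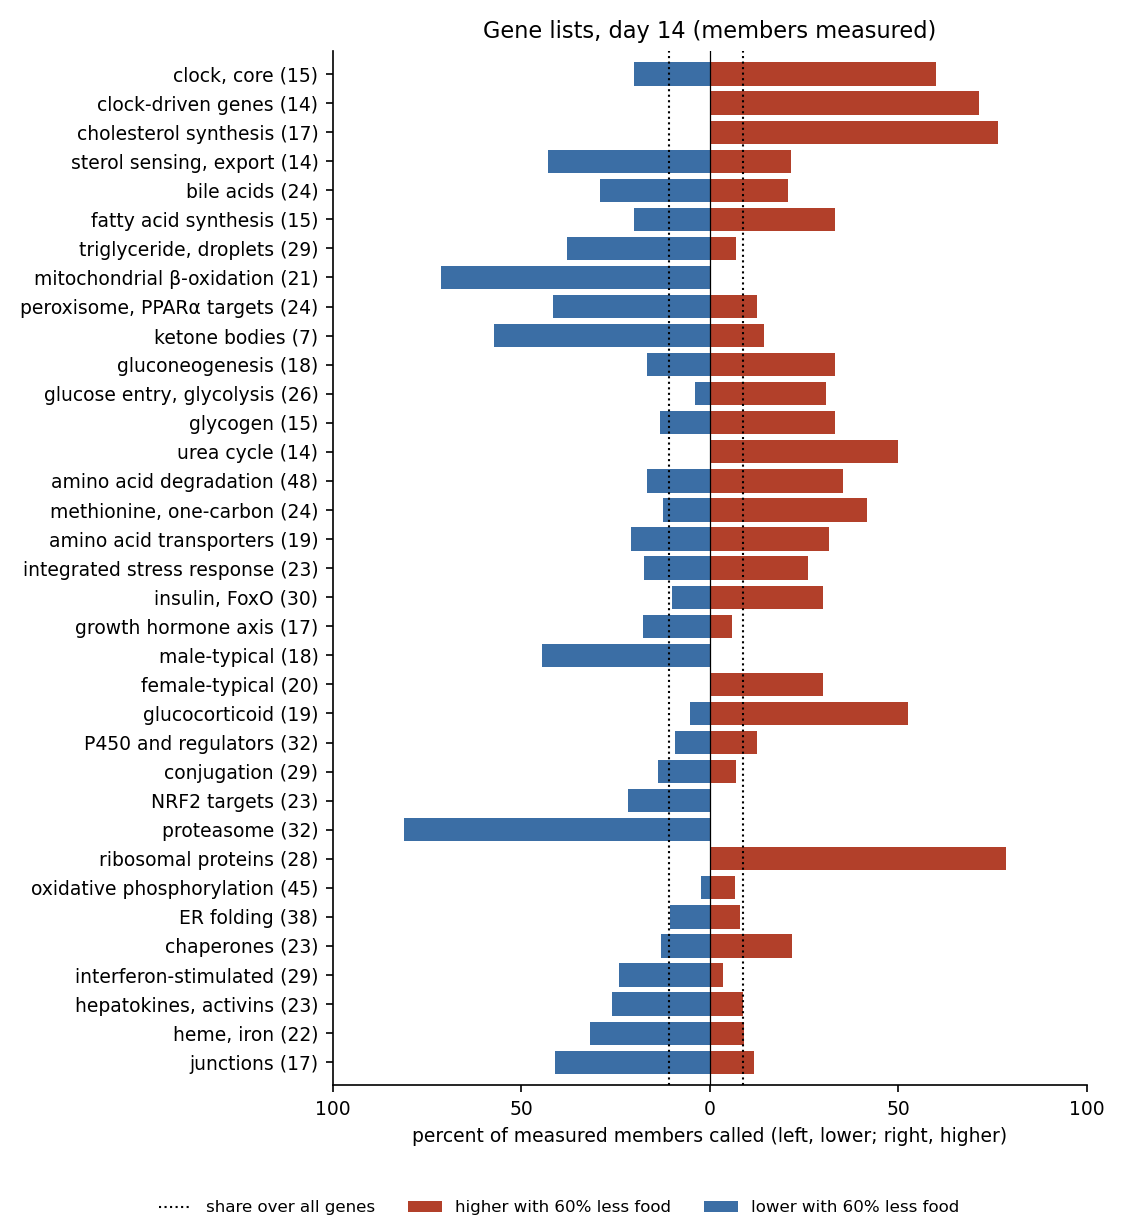
Percent of measured members (number in brackets) called higher (right) or lower (left) with 60% less food at day 14, for lists of genes, with the share over all genes dotted (8.88% and 10.9%). Clock-driven genes, cholesterol synthesis and ribosomal proteins extend to the right only, and mitochondrial β-oxidation and the proteasome to the left only.

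Most genes of sterol synthesis rose. Of 17 enzymes from acetyl-CoA to cholesterol, 13 were higher and none lower, with a median change of 0.828. Squalene epoxidase (Sqle), a rate-limiting step, had 8.68, 9.02, 9.15, 9.96 and 10.50 in the restricted rats and 6.93, 7.26, 7.56, 7.72 and 8.32 in the controls, a rise of 1.90 (SE 0.34, adjusted p = 0.00283) without overlap. Idi1, which isomerizes isopentenyl diphosphate, rose by 1.82 (SE 0.31, adjusted p = 0.00232), Msmo1, a sterol demethylase, by 1.66 (SE 0.31, adjusted p = 0.00405), and Hsd17b7, which reduces a keto sterol late in the pathway, by 1.82 (SE 0.23, adjusted p = 0.000339). The sensing genes split. Of 14 measured, 3 were higher and 6 lower. Srebf2, the factor that drives the pathway, rose by 0.55 (SE 0.10, adjusted p = 0.00478), and the carrier Stard4 by 0.88 (SE 0.19, adjusted p = 0.0083). The 2 Insig genes, which hold that factor in the endoplasmic reticulum, went apart, since Insig1 had 11.84, 12.09, 12.17, 12.39 and 12.91 against 9.36, 10.36, 10.36, 10.66 and 10.88 in controls, and Insig2 had 10.06, 11.06, 11.19, 11.27 and 11.33 against 12.40, 12.48, 12.54, 12.80 and 13.16. Insig1 thus rose by 1.96 (SE 0.26, adjusted p = 0.000505) and Insig2, which insulin is known to lower, fell by 1.69 (SE 0.23, adjusted p = 0.000505). Both genes of the sterol exporter fell, Abcg5 by 0.75 (SE 0.14, adjusted p = 0.00454) and Abcg8 by 1.25 (SE 0.17, adjusted p = 0.000568).

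In bile acid metabolism 5 of 24 genes were higher and 7 lower. Cyp7a1, the rate-limiting enzyme, rose by 1.56 (SE 0.37, adjusted p = 0.0143), from 10.27 ± 0.87 to 11.83 ± 0.50 (SD, n = 5 each), and Cyp27a1 of the alternative route by 0.40 (SE 0.08, adjusted p = 0.00454). Cyp8b1, which makes the 12-hydroxylated acids, fell by 0.96 (SE 0.14, adjusted p = 0.000728), and Hsd3b7, a step shared by both routes, by 0.86 (SE 0.16, adjusted p = 0.00387). Of the canalicular pumps, Abcb4, which carries phospholipid, had 8.84, 8.95, 9.27, 9.43 and 9.80 in restricted rats and 10.40, 10.86, 10.95, 11.05 and 11.08 in controls. It fell 3.05-fold, and the bile salt pump Abcb11 by 0.33 (SE 0.08, adjusted p = 0.0186).

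Genes of fatty acid synthesis did not move as one. Of 15 genes, 5 were higher and 3 lower, with a median of 0.129. Thrsp, a thyroid hormone and carbohydrate responsive gene, rose by 1.64 (SE 0.19, adjusted p = 0.000155), Acss2, which activates acetate, by 1.21 (SE 0.18, adjusted p = 0.000827), and the synthase Fasn by 0.75 (SE 0.11, adjusted p = 0.000699). Me1, which supplies NADPH, fell by 1.22 (SE 0.20, adjusted p = 0.00202) without overlap (6.54, 6.92, 7.23, 7.26 and 7.83 against 7.94, 8.39, 8.48, 8.52 and 8.53). Srebf1, the lipogenic counterpart of Srebf2, was -0.26 (adjusted p = 0.403), and the desaturase Scd 1.14 (adjusted p = 0.1), just past the threshold and spread over 8.08, 9.47, 9.48, 9.86 and 10.48 in the restricted rats. In desaturation and elongation 1 of 9 genes was higher and 1 lower, together 22.2% beside 19.8% of all genes. These were Fads1, which rose by 0.95 (SE 0.16, adjusted p = 0.00208), and Elovl5, which fell by 1.96 (SE 0.17, adjusted p = 2.97e-05).

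Of 29 genes of triglyceride synthesis, lipid droplets and lipases 11 fell and 2 rose, and the list's median was -0.025. The first step of glycerolipid synthesis, Gpam, had 6.11, 6.13, 6.30, 6.36 and 6.44 with restriction and 7.73, 7.93, 7.99, 8.15 and 8.32 without it, a fall of 1.76 (SE 0.11, adjusted p = 1.78e-06). The droplet coat Plin2 had 9.39, 9.43, 9.66, 9.82 and 11.84 and 12.03, 12.25, 12.38, 12.75 and 12.78. A single restricted rat reached 11.84, close to the lowest control, and the next was at 9.82. The fall was 2.41 (SE 0.40, adjusted p = 0.00185). G0s2, which inhibits the lipase Pnpla2, fell by 1.63 (SE 0.53, adjusted p = 0.0622), a call lost without any 1 of 5 of the 10 rats (adjusted p up to 0.136), and lipoprotein lipase Lpl by 1.33 (SE 0.30, adjusted p = 0.011), both with overlap. The 2 genes that rose were phosphatidate phosphatases that also act in the nucleus. Lpin2 had 10.58, 10.61, 10.81, 11.11 and 11.17 against 8.24, 8.24, 8.46, 8.66 and 8.74, and Lpin1 11.28, 11.73, 11.97, 12.41 and 13.08 against 9.13, 9.43, 9.83, 10.14 and 10.34. The groups did not overlap for either gene, and the rises were 2.39 (SE 0.14, adjusted p = 1.3e-06) and 2.32 (SE 0.31, adjusted p = 0.000505). Lpin1 is a known target of glucocorticoids and Ppargc1a.

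Most genes of mitochondrial fatty acid oxidation were lower. Of 21 genes 15 were lower and none higher, with a median of -0.386. Eci1, an enoyl isomerase, fell by 1.24 (SE 0.17, adjusted p = 0.000552), Etfdh, which passes electrons on to ubiquinone, by 0.82 (SE 0.06, adjusted p = 1.08e-05), and the trifunctional protein by 0.68 (SE 0.08, adjusted p = 0.000281) for Hadhb and 0.57 (SE 0.08, adjusted p = 0.000549) for Hadha. A second, dimmer probe set of Eci1 gave 0.07 (adjusted p = 0.773). Etfdh was tightly grouped, with 10.78, 10.84, 10.84, 10.88 and 10.95 in restricted rats and 11.60, 11.62, 11.63, 11.75 and 11.76 in controls. Crat, a carnitine transferase, fell by 0.65 (SE 0.22, adjusted p = 0.068) with overlap, a call lost without any 1 of 6 of the 10 rats (adjusted p up to 0.153). Averaged over all its probe sets Hadha lost its call at -0.225 (adjusted p = 0.109). The entry gate Cpt1a did not pass the test, at 12.98 ± 0.11 and 12.98 ± 0.13 (SD, n = 5 each), and Cpt2 had a change of 0.28 (adjusted p = 0.157).

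PPAR alpha targets and peroxisomal genes showed 10 lower and 3 higher of 24, with a median of -0.39. Crot, which exports shortened acyl groups from peroxisomes, had 8.89, 9.07, 9.67, 9.81 and 9.87 in restricted rats and 12.16, 12.36, 12.42, 12.68 and 12.74 in controls. That is an 8.06-fold difference without overlap (adjusted p = 2.24e-06), but another, dimmer probe set of Crot gave -0.26 (adjusted p = 0.765). Vnn1, a pantetheinase strongly induced in fasting, had 5.70, 7.38, 8.29, 8.34 and 8.65 and 9.61, 9.92, 10.08, 10.15 and 10.20, a fall of 2.32 (SE 0.45, adjusted p = 0.0048). Pex11a, a peroxisome proliferation factor, fell by 1.59 (SE 0.29, adjusted p = 0.00366), the omega-hydroxylase Cyp4a1 by 0.91 (SE 0.14, adjusted p = 0.000964) and the fasting hormone Fgf21 by 1.58 (SE 0.33, adjusted p = 0.00773). The 3 higher genes were regulators rather than enzymes. They included Ppara itself, which rose by 0.64 (SE 0.21, adjusted p = 0.0684) and lost its call without any 1 of 6 rats (adjusted p up to 0.136), and its coactivator Ppargc1a, with 8.35, 8.99, 9.23, 9.84 and 10.21 against 7.06, 7.08, 7.75, 7.79 and 7.80. Ppargc1a rose by 1.83 (SE 0.31, adjusted p = 0.00208). Of 7 ketone body genes 4 were lower and 1 higher. The monocarboxylate carrier Slc16a1 had 9.26, 9.27, 9.49, 9.50 and 9.60 and 11.18, 11.37, 11.43, 11.52 and 11.68 and so fell 4.03-fold, the mitochondrial dehydrogenase Bdh1 fell by 1.57 (SE 0.24, adjusted p = 0.00113), and the carrier Slc16a6 by 0.59 (SE 0.14, adjusted p = 0.0154). Bdh2, a cytosolic enzyme, rose by 1.5 (SE 0.19, adjusted p = 0.000381). Another, dimmer probe set of Slc16a1 gave -0.05 (adjusted p = 0.839).

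**Figure D3:**
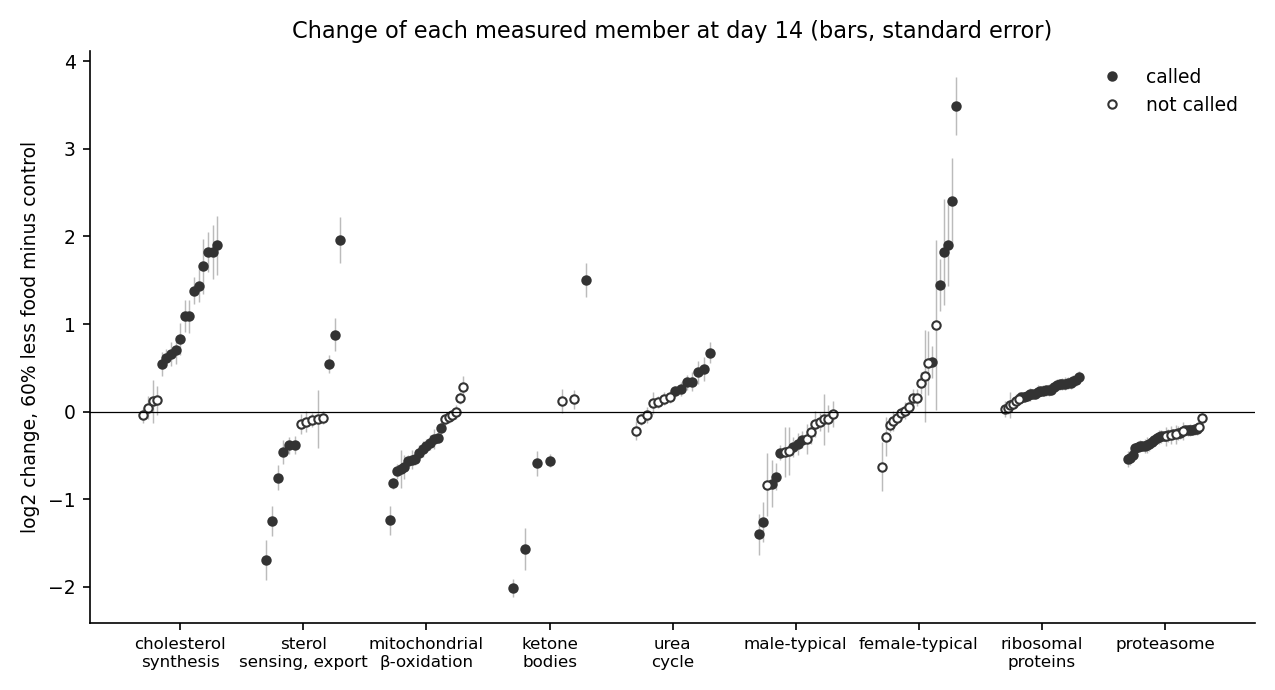
Log2 change (vertical axis, 60% less food minus control, day 14) of each measured member of 9 lists, sorted within a list, with standard errors (filled, called; open, not called). Ribosomal proteins all lie above 0 and proteasome subunits all below it, with extremes of 0.391 and -0.537, while sterol and female-typical genes reach further.

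Among genes of glucose metabolism, some of entry and of storage rose. Of 18 gluconeogenic genes 6 were higher and 3 lower. Got1 and Gpt2, transaminases that feed it, rose by 1.25 (SE 0.23, adjusted p = 0.00393) and 0.88 (SE 0.18, adjusted p = 0.00589), and the glucose-6-phosphate carrier Slc37a4 by 0.70 (SE 0.07, adjusted p = 0.000106). Pck1, its textbook control point, was already at 13.68 ± 0.06 (SD, n = 5) in the fasted controls and rose by 0.21 (SE 0.06, adjusted p = 0.0311). Pc fell by 0.44 (SE 0.07, adjusted p = 0.000999) and Ldha by 1.56 (SE 0.14, adjusted p = 2.81e-05), and Fbp1 was -0.07 (adjusted p = 0.544). For glucose entry and glycolysis, 8 of 26 were higher and 1 lower. The carrier Slc2a2 had 12.80, 12.89, 13.03, 13.09 and 13.10 against 11.22, 11.61, 11.77, 11.84 and 11.93 and rose by 1.31 (SE 0.12, adjusted p = 4.67e-05), Gpi by 0.70 (SE 0.08, adjusted p = 0.000144) and Pfkfb1, which makes or removes fructose 2,6-bisphosphate, by 0.82 (SE 0.22, adjusted p = 0.0241). The 1 gene that fell was Gckr, the protein that holds glucokinase in the nucleus, with 8.95, 9.17, 9.18, 9.47 and 9.53 against 11.17, 11.32, 11.32, 11.33 and 11.43. That is a 4.15-fold fall (adjusted p = 3.57e-07). In glycogen metabolism 5 of 15 were higher and 2 lower, among them the synthase Gys2, which rose by 0.81 (SE 0.14, adjusted p = 0.0022), Ugp2, by 0.81 (SE 0.12, adjusted p = 0.00121), and the glycogen-binding Stbd1, by 0.78 (SE 0.19, adjusted p = 0.0182), while the phosphorylase Pygl fell by 0.52 (SE 0.11, adjusted p = 0.00787). The pentose phosphate and NADPH list had 4 of 14 higher and 2 lower, with Mthfd1 up by 1.03 (SE 0.08, adjusted p = 1.08e-05) and Idh2 by 0.62 (SE 0.13, adjusted p = 0.00744).

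Among genes of nitrogen handling more rose than fell. Of 14 urea cycle and ammonia genes, 7 were higher and none lower, with a median of 0.201. They included the ornithine carrier Slc25a15, which rose by 0.68 (SE 0.12, adjusted p = 0.00228), Asl, by 0.49 (SE 0.13, adjusted p = 0.0287), Car5a, which supplies bicarbonate, by 0.45 (SE 0.13, adjusted p = 0.0426), and Cps1, the entry step, by 0.23 (SE 0.07, adjusted p = 0.039). Of 48 genes of amino acid degradation, 17 were higher and 8 lower. Serine dehydratase Sds ran from 13.42 to 14.25 in restricted rats and from 11.58 to 13.24 in controls, without overlap and with a rise of 1.48 (SE 0.28, adjusted p = 0.00427). The tyrosine transaminase Tat rose by 1.24 (SE 0.23, adjusted p = 0.00406), and the first enzyme of tryptophan breakdown, Tdo2, by 0.29 (SE 0.08, adjusted p = 0.031). Further along that route, Kynu, which cleaves kynurenine, had 9.61, 9.99, 10.03, 10.17 and 10.39 with restriction and 12.44, 12.46, 12.51, 12.52 and 12.63 without it, while Acmsd, which diverts the route from NAD, rose by 1.24 (SE 0.33, adjusted p = 0.0255) with overlap. Kynu fell by 2.48 (SE 0.12, adjusted p = 3.57e-07), with very little spread among the controls (SD 0.08). The methionine and one-carbon list had 10 of 24 higher and 3 lower, such as Nnmt, which methylates nicotinamide, with a rise of 1.02 (SE 0.22, adjusted p = 0.00929), and Sardh, by 0.62 (SE 0.15, adjusted p = 0.0154).

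Amino acid transporters changed in both directions, 6 higher and 4 lower of 19. The glucagon-responsive Slc38a2 rose by 1.86 (SE 0.33, adjusted p = 0.00295) and the glutamate carrier Slc1a2 by 1.02 (SE 0.17, adjusted p = 0.00186). The taurine carrier Slc6a6 had 6.30, 6.48, 7.30, 7.73 and 7.99 and 9.04, 9.10, 9.24, 9.33 and 9.57, a fall of 2.10 (SE 0.29, adjusted p = 0.000574), and Slc1a4, which carries serine and alanine, fell by 1.90 (SE 0.22, adjusted p = 0.000189). The integrated stress response list had 6 higher and 4 lower of 23. Nupr1, a stress-induced chromatin protein, had 10.97, 11.04, 11.09, 11.18 and 11.58 against 8.27, 8.53, 9.22, 9.34 and 9.65, a rise of 2.17 (SE 0.23, adjusted p = 0.000116), and Ddit4, which inhibits mTORC1, rose by 1.65 (SE 0.46, adjusted p = 0.031). Atf5 had 10.52, 10.61, 10.69, 10.96 and 10.97 against 12.37, 12.55, 12.57, 12.76 and 13.07 and fell by 1.91 (SE 0.13, adjusted p = 4.27e-06), and asparagine synthetase Asns, from a low level, by 0.88 (SE 0.26, adjusted p = 0.0408).

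Among insulin and FoxO responsive genes 9 of 30 were higher and 3 lower. Igfbp1, an IGF-binding protein that insulin suppresses, had 12.03, 12.49, 13.06, 13.46 and 13.65 in restricted rats and 11.06, 11.08, 11.42, 11.88 and 11.98 in controls and rose by 1.45 (SE 0.30, adjusted p = 0.0064). The insulin receptor substrate Irs2 rose by 1.27 (SE 0.21, adjusted p = 0.00204), Gadd45b by 1.36 (SE 0.26, adjusted p = 0.00409), Klf15, a regulator of amino acid use in fasting, by 1.19 (SE 0.13, adjusted p = 0.000128), and the stress sensor Sesn1 by 1.18 (SE 0.32, adjusted p = 0.0274). Glucocorticoid receptor and target genes had 10 of 19 higher and 1 lower. Among the higher ones, Tat, Per1, Ddit4, Tsc22d3, Klf9, Pck1 and Nr3c1 stand in other lists too, so this count is not separate from theirs. Fkbp5 rose by 1.10 (SE 0.29, adjusted p = 0.025), Tsc22d3 by 1.13 (SE 0.41, adjusted p = 0.0889) with overlap, lost without any 1 of 9 rats (adjusted p up to 0.185), and the receptor Nr3c1 by 0.48 (SE 0.11, adjusted p = 0.0103). Serpina6, the plasma carrier of corticosterone, fell by 0.65 (SE 0.20, adjusted p = 0.0487), lost without any 1 of 4 rats (adjusted p up to 0.113).

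Genes typical of male and of female rat liver that passed the test went in opposite directions. Of 18 male-typical genes 8 were lower and none higher (median -0.385), and of 20 female-typical genes 6 were higher and none lower (median 0.244). The 6 include Igfbp1, which also counts among the insulin and FoxO genes above, and 5 of the 20 were dim. Hsd17b2, which inactivates estradiol and testosterone, had 12.93, 13.55, 13.61, 13.73 and 13.82 in restricted rats and 9.06, 9.59, 9.84, 10.47 and 11.22 in controls, an 11.2-fold rise (adjusted p = 4.91e-05). Cux2, a female-specific repressor, ranged over 5.86, 7.10, 7.38, 8.85 and 8.97 with restriction and 4.81, 5.04, 5.29, 5.32 and 5.61 without it. Its lowest restricted rat was just above the highest control, and the rise was 2.41 (SE 0.49, adjusted p = 0.00617). Trim24 and the prolactin receptor Prlr rose by 1.90 (SE 0.47, adjusted p = 0.018) and 1.82 (SE 0.60, adjusted p = 0.0663), both with overlap, and Prlr lost its call without any 1 of 6 rats (adjusted p up to 0.149). On the male side, Obp3, a lipocalin, fell by 1.40 (SE 0.23, adjusted p = 0.00193), the hydroxy acid oxidase Hao2 by 1.26 (SE 0.23, adjusted p = 0.00363), Dhrs7 by 0.82 (SE 0.27, adjusted p = 0.061), lost without any 1 of 6 rats (adjusted p up to 0.128), and the estrogen sulfotransferase Sult1e1 by 0.74 (SE 0.16, adjusted p = 0.00823). The best-known sex markers, Cyp2c11 of males and Cyp2c12 of females, did not pass the test, with changes of -0.08 (adjusted p = 0.807) and 0.41 (adjusted p = 0.697). Cyp2c11 turned to 0.01 when arrays were weighted. In the growth hormone axis 1 of 17 was higher, namely Prlr, and 3 lower, together 23.5% beside 19.8% of all genes. The feedback inhibitor Socs2 fell by 1.32, Stat5b by 0.92 and Stat5a by 0.26 (adjusted p = 0.0345, 0.00101 and 0.0391). Igf1 had 13.52 ± 0.06 against 13.58 ± 0.15 (SD, n = 5 each) and Ghr a change of -0.42 (adjusted p = 0.155).

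Transcripts of ribosomal proteins and of proteasome subunits shifted by small amounts in many genes. Of 28 ribosomal proteins measured, out of 52 listed, 22 were higher and none lower, with a median of 0.237 and a range of 0.029 to 0.391. Among them Rpl12 rose by 0.39 (SE 0.07, adjusted p = 0.00409), Rpl35 by 0.36 (SE 0.07, adjusted p = 0.00408), Rps24 by 0.36 (SE 0.06, adjusted p = 0.0033) and Rpl3 by 0.33 (SE 0.07, adjusted p = 0.00695). Of 32 proteasome subunits 26 were lower and none higher, with a median of -0.279 and all 32 below 0. Psmd1 had 8.60, 8.73, 8.75, 8.89 and 8.99 and 9.24, 9.25, 9.28, 9.31 and 9.58 and fell by 0.54 (SE 0.09, adjusted p = 0.00224), Psmd14 fell by 0.52 (SE 0.08, adjusted p = 0.0015), Psma4 by 0.50 (SE 0.07, adjusted p = 0.000505) and Psmd8 by 0.42 (SE 0.06, adjusted p = 0.00106). Genes for ribosome assembly had 5 of 31 higher and none lower, translation factors and tRNA synthetases 3 of 36 in each direction, among them Cars1 and Aars1, which fell by 0.66 (SE 0.12, adjusted p = 0.00303) and 0.45 (SE 0.08, adjusted p = 0.00236). Oxidative phosphorylation subunits had 3 of 45 higher and 1 lower, with changes from -0.212 to 0.173. Endoplasmic reticulum folding had 3 of 38 higher and 4 lower, with Herpud1 up by 1.03 (SE 0.23, adjusted p = 0.0101) and Creld2 down by 0.50 (SE 0.12, adjusted p = 0.0147). Among 23 chaperones 5 were higher and 3 lower, and Hspa1a rose by 0.87 (SE 0.24, adjusted p = 0.0314). Autophagy and lysosome genes had 4 of 33 higher and 6 lower. The higher ones included Bnip3 and Gabarapl1, which act in mitophagy and autophagosome formation and rose by 0.88 (SE 0.17, adjusted p = 0.00432) and 0.74 (SE 0.08, adjusted p = 0.000127), and Atg14, by 0.42 (SE 0.09, adjusted p = 0.00634). Cell cycle genes had 6 of 41 higher and 3 lower, with both the inhibitor Cdkn1a, which fell by 1.35 (SE 0.36, adjusted p = 0.0242), and cyclin Ccnd1, by 0.81 (SE 0.26, adjusted p = 0.0527) and lost without any 1 of 3 rats (adjusted p up to 0.115), among the latter, and the inhibitor Cdkn1b up by 0.53 (SE 0.08, adjusted p = 0.00131). Several of these lists lay near or below the 19.8% called over all genes. The shares were 22.0% for the cell cycle, 18.4% for endoplasmic reticulum folding and 16.7% for translation. Ribosome assembly had 16.1% and oxidative phosphorylation 8.9%.

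In the list of drug and retinoid metabolizing P450 enzymes, their electron donor and their regulators, 4 of 32 genes were higher and 3 lower, together 21.9% beside 19.8% of all genes. Besides Por, given above, and the dim Cyp26a1 with 0.57 (adjusted p = 0.0201), the higher ones were Cyp1a1 and the receptor Nr1i2 with 0.81 (SE 0.19, adjusted p = 0.013) and 0.76 (SE 0.13, adjusted p = 0.00269). Cyp2f4 fell by 0.63 (SE 0.11, adjusted p = 0.00274). Conjugating enzymes had 2 of 29 higher and 4 lower, together 20.7%, such as Ugt2b1, up by 1.18 (SE 0.24, adjusted p = 0.0069), and Nat1, down by 0.75 (SE 0.11, adjusted p = 0.00102). Sult2a6, a hydroxysteroid sulfotransferase outside that list, had 11.02, 11.20, 11.40, 11.50 and 11.73 in restricted rats and 7.37, 7.67, 7.88, 8.95 and 9.04 in controls, a 9.14-fold rise (adjusted p = 4.62e-05). Its group has close relatives whose transcripts the probes may share. The list of NRF2, the antioxidant factor, and its targets had 5 of 23 lower and none higher, together 21.7% beside 19.8% of all genes. Among them were Nqo1, which fell by 0.92 (SE 0.25, adjusted p = 0.0272), Gss, by 0.61 (SE 0.10, adjusted p = 0.00217), Gsr, by 0.37 (SE 0.10, adjusted p = 0.0324), and the factor's own gene Nfe2l2, by 0.54 (SE 0.12, adjusted p = 0.00999). The organic anion carrier Slc22a8 had 6.93, 7.28, 7.91, 8.63 and 10.22 with restriction and 11.39, 11.41, 11.59, 11.60 and 11.69 without it, and so spread widely in the restricted rats and hardly at all in the controls. It fell by 3.34 (SE 0.48, adjusted p = 0.000796).

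Of the 4 inhibin and activin beta chains measured, 3 fell. Inhba, the activin A chain, had 4.58, 4.81, 4.81, 5.00 and 5.29 in restricted rats, at the edge of the dimmest quartile, and 7.46, 7.95, 7.97, 8.63 and 8.99 in controls. It fell by 3.30 (SE 0.25, adjusted p = 7.36e-06), counted down to that edge it fell by 3.26, and on another probe set it fell by 0.92. Inhbc fell by 1.77 (SE 0.20, adjusted p = 0.000156) and Inhbe by 1.84 (SE 0.50, adjusted p = 0.0278) with overlap. Inhbb did not pass the test, with a change of 0.20 (adjusted p = 0.542). The hepatokine list as a whole had 6 of 23 lower and 2 higher. Angptl8, a fed-state inhibitor of lipoprotein lipase, fell by 1.10 (SE 0.18, adjusted p = 0.00184), and hepcidin Hamp, the hormone that lowers iron export, rose from 13.26 ± 0.75 to 14.30 ± 0.09 (SD, n = 5 each). Apolipoproteins had 5 of 16 lower and none higher, with Apoa1 down by 0.62 (SE 0.09, adjusted p = 0.000827) and Apoa4 by 0.39 (SE 0.09, adjusted p = 0.0143). Complement and coagulation had 5 of 33 lower and 1 higher, together 18.2% beside 19.8% of all genes. Mbl2 fell by 0.46 (SE 0.10, adjusted p = 0.00975) and Klkb1 rose by 0.44 (SE 0.08, adjusted p = 0.00408). Acute phase and carrier proteins had 2 of 27 higher and 1 lower, together 11.1%, with the receptor Il6r up by 1.10 (SE 0.20, adjusted p = 0.00338). Interferon-stimulated genes had 7 of 29 lower and 1 higher, together 27.6%. Among them were Rsad2, which fell by 1.21 (SE 0.13, adjusted p = 0.000135), Irf1, by 0.89 (SE 0.20, adjusted p = 0.0115), and Isg20, by 0.77 (SE 0.15, adjusted p = 0.00494). Immediate early genes had 5 of 19 higher and none lower, together 26.3%. They were led by Myc, which rose by 1.65 (SE 0.51, adjusted p = 0.0495) with overlap, lost without any 1 of 5 rats (adjusted p up to 0.116), Maff, by 1.33 (SE 0.19, adjusted p = 0.000827), Zfp36, by 0.83 (SE 0.19, adjusted p = 0.0124), and Klf6, by 0.79 (SE 0.10, adjusted p = 0.000339). Nuclear receptors had 7 of 30 higher and 5 lower, with Nr5a2 up by 0.56 (SE 0.12, adjusted p = 0.00765), and the NAD, AMPK and mTOR list 9 of 33 higher and 2 lower.

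Junction and matrix genes held the largest falls. Of 17 junction genes 7 were lower and 2 higher. Claudin 1 (Cldn1), a tight junction strand protein, had 6.30, 6.60, 6.61, 6.99 and 7.27 in restricted rats and 9.68, 10.12, 10.29, 10.43 and 10.56 in controls, a fall of 3.46 (SE 0.19, adjusted p = 7.3e-07). Cldn2, a pore-forming claudin, fell by 1.58 (SE 0.19, adjusted p = 0.000274), Tjp3, a scaffold, by 1.27 (SE 0.17, adjusted p = 0.000444) and cingulin Cgn by 1.03 (SE 0.19, adjusted p = 0.0037). Lox, which crosslinks collagen, had 4.64, 5.09, 5.32, 5.64 and 5.91 with restriction and 8.56, 8.83, 9.43, 10.38 and 10.40 without it. It fell 18.4-fold (log2 change -4.20 (SE 0.36, adjusted p = 2.37e-05)), more than any other called gene, and a second probe set gave -3.02. Of 18 stellate cell and fibroblast markers 2 were lower, 11.1% beside 19.8% of all genes, namely Lox and Pdgfrb. Pdgfrb fell by 0.80 (SE 0.15, adjusted p = 0.00429) on 1 probe set while its other 2 gave 0.18 and 0.08. Col1a1 and Col3a1, collagen chains, were at -0.24 (adjusted p = 0.145) and -0.57 (adjusted p = 0.11). A second probe set of Col1a1, of about the same brightness, gave -0.76 and passed the test (adjusted p = 0.0326 over all probe sets). Summed over the 18 markers, intensities were 5177 to 8699 in restricted rats and 5824 to 8961 in controls, which overlap, and Lum and Postn were in the dimmest quartile in both groups. Poteml2 and Spin2b, whose roles in liver are not known here, fell by 2.58 (SE 0.27, adjusted p = 9.33e-05) and by 2.47 (SE 0.29, adjusted p = 0.000197) and ended near the dim edge at 4.76 ± 0.14 and 4.99 ± 0.20 (SD, n = 5 each). Counted down to that edge Poteml2 fell by 2.40.

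Some blood cell transcripts were lower too. Of 5 erythroid markers Hbb and Alas2, for beta globin and the erythroid heme synthase, fell by 2.14 (SE 0.29, adjusted p = 0.000505) and 1.98 (SE 0.14, adjusted p = 6.79e-06), while Epb42, Ahsp and Slc4a1 did not pass the test, with changes of 0.00, -0.07 and -0.13. The summed intensity was 1300 to 3575 in restricted rats and 7432 to 10738 in controls, and Epb42 was in the dimmest quartile in both. This sum is on the linear scale, where the bright Hbb makes up most of it, so it mainly repeats the fall of Hbb. In the heme and iron list, which holds Alas2, 7 of 22 were lower and 2 higher, among them Fech, the last step of heme synthesis, which fell by 0.66 (SE 0.09, adjusted p = 0.000653), and the ferrireductase Steap3, by 0.76 (SE 0.13, adjusted p = 0.00208). How far red cell RNA took part in these was not tested. Of 15 T and NK cell markers 6 were lower and none higher, such as Prf1 and Ccl5, which fell by 0.66 (SE 0.12, adjusted p = 0.00279) and 0.65 (SE 0.13, adjusted p = 0.00675). Their sums were 1460 to 1729 against 1921 to 2279. These sums too are on the linear scale, where brighter markers weigh most, so they are not separate from the falls of single markers. The sums of the other cell types overlapped between the groups. Kupffer cell markers had 1 of 11 lower, B cell markers 1 of 7 and neutrophil markers 1 of 7, endothelial markers 1 of 11 higher, and bile duct markers 1 of 8 higher. These shares, from 9.1% to 14.3%, lay below the 19.8% called over all genes. Of 8 pancreatic markers 1 was higher and 1 lower (25.0%), and of 8 adipocyte markers 1 was lower (12.5%), with 5 and 4 of them in the dimmest quartile in both groups. The part of these cells in the falls of interferon genes was not tested.

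Some genes were singled out by the study itself on these samples, so their values here are not independent evidence of a direction. Of 7 measured genes taken from the study's network, 6 of them its hub nodes and the last, Gk, named for its links, Tkt, a transketolase, rose by 0.49 (SE 0.07, adjusted p = 0.00106), Hadha fell as above and glycerol kinase Gk fell by 1.92 (SE 0.17, adjusted p = 2.67e-05), with 9.58, 9.94, 9.99, 10.40 and 10.58 against 11.68, 12.06, 12.07, 12.14 and 12.14. A second probe set of Gk gave -1.22. Pklr, Pgm1, Tpi1 and Eno3 did not pass, with changes of 0.27, -0.19, 0.13 and 0.16 (adjusted p = 0.267, 0.106, 0.367 and 0.424). Of 6 steroid genes, Hsd17b2 and Hsd17b7 rose as above and Akr1c19 fell by 0.69 (SE 0.19, adjusted p = 0.0328), while Hsd11b1, Hsd17b8 and the dim Hsd17b1 differed by 0.07, 0.00 and -0.06. Of 5 enzymes that rats have and humans lack, urate oxidase Uox rose by 0.35 (SE 0.08, adjusted p = 0.0104) and the vitamin C enzyme Gulo fell by 0.57 (SE 0.09, adjusted p = 0.00142). Ggta1, Urah and Tdh had changes of -0.14, 0.08 and 0.00 (adjusted p = 0.392, 0.547 and 0.998).

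The change after 14 days was then set against that after 4 days by the interaction of diet and day, a test on 20 arrays. It called 290 genes (2.04%), 120 with a more positive change at day 14 (0.844%) and 170 with a more negative one (1.2%). With single rats left out the count ran from 98, without rat 3 of the restricted group at day 4, to 381, without rat 4 of that group. Of the 12 genes named next, Irs2, Nrg4, Srebf1 and Crot kept their call in all 20 such fits, and the other 8 lost it in 2 to 13 of them. The day of sampling is the only label of a possible batch, and each day has its own controls. Sult2a6 led the first kind, since it rose by 3.19 at day 14 and had a change of 0.49 at day 4 (difference 2.70, SE 0.63, adjusted p = 0.0506). Igfbp1 went from -0.46 at day 4 to 1.45 (adjusted p of the difference = 0.0536), Irs2 from -0.08 to 1.27 (adjusted p = 0.0243), Nupr1 from 0.79 to 2.17 (adjusted p = 0.0717), and the small GTPase Rab30 from -1.21 to 0.61 (adjusted p = 0.083). Nrg4, a secreted ligand of ErbB4, had 6.41, 6.43, 6.54, 6.54 and 6.64 at day 14 with restriction and 4.52, 4.58, 4.58, 4.64 and 4.70 in controls, which lie in the dimmest quartile. Its change went from 0.32 to 1.90 with the smallest adjusted p among these, 0.000435, and counted from the dim edge the rise at day 14 was 1.57. In the other direction, Lox went from -0.81 to -4.20 (adjusted p = 0.0717), Slc22a8 from -0.65 to -3.34 (adjusted p = 0.0506), the sulfate carrier Slc13a4 from 0.10 to -2.05 (adjusted p = 0.0837) and Crot from -1.06 to -3.01 (adjusted p = 0.0243). Srebf1 and Ppp1r3b had their larger change at day 4. Srebf1 was 1.79 higher then and -0.26 at day 14 (adjusted p of the difference = 0.0243), and Ppp1r3b, which targets phosphatase to glycogen, 1.75 and -0.20 (adjusted p = 0.0648). No core clock gene, clock-driven gene or cholesterol synthesis gene was called in the interaction, which does not show that their changes were the same on both days.

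**Figure D4:**
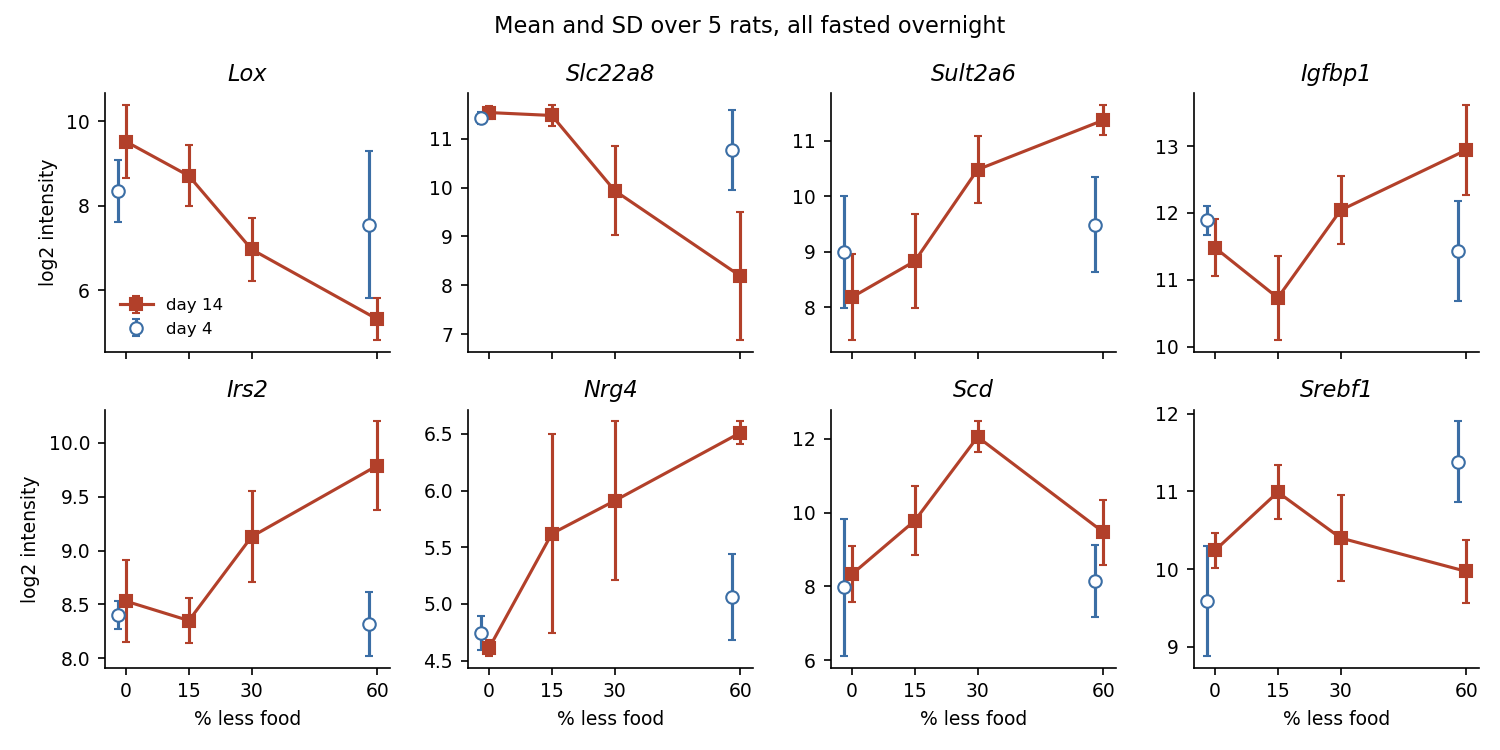
Log2 intensity (vertical axes, each on its own range) against the reduction in food for 8 genes, as mean and SD over 5 rats, at day 14 (squares) and, for 0% and 60%, at day 4 (circles, set slightly to the left). Scd is highest with 30% less food, and Lox lies lower with each step of restriction.

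Direct tests at day 14 asked whether 60% less food went beyond the milder diets. Against 15% less food 1358 genes were called (9.55%), 535 higher (3.76%) and 823 lower (5.79%). With single rats left out there were 751, without rat 5 of the 15% group, to 1723, without rat 3 of the 60% group, and of the 12 genes named next Cux2 alone lost its call in 1 of 10 fits (adjusted p = 0.104, without rat 5 of the 15% group). Sult2a6 was 2.54 higher (SE 0.33, adjusted p = 0.00319), the IGF-binding proteins Igfbp2 and Igfbp1 2.42 and 2.21 (adjusted p = 0.00974 and 0.00581), and Cux2, Trim24 and Ppargc1a 2.03, 1.87 and 1.84 (adjusted p = 0.0435, 0.0426 and 0.00869). Against the fasted control, however, Igfbp2 differed by only 0.33 and did not pass the test (adjusted p = 0.753 over all probe sets). Lox, Slc22a8 and Slc13a4 were lower by 3.38, 3.29 and 2.11 (adjusted p = 0.001, 0.00543 and 0.00334), and Hbb by 2.02 (adjusted p = 0.00401). Stac3 and Nrep were lower by 2.32 and 2.13 (adjusted p = 0.0138 and 0.00852), with means of 11.44 ± 0.34 at 15% and 10.04 ± 0.63 in the controls for Stac3, and 11.42 ± 0.67 and 10.04 ± 0.54 for Nrep (SD, n = 5 each). Of the 28 ribosomal proteins 17 were higher and none lower with 60% than with 15% less food, and of the 17 cholesterol enzymes 1 was.

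Against 30% less food 52 genes were called (0.366%), 13 higher (0.0914%) and 39 lower (0.274%). The count was 0 without rat 1 of the 60% group or rat 4 of the 30% group, 3 to 33 without 6 of the other rats, and 113 and 302 without rat 1 of the 30% group and rat 3 of the 60% group. Each of the 12 genes named next lost its call in 2 to 9 of the 10 fits. Scd, the stearoyl-CoA desaturase, led them with 9.47 ± 0.88 (SD, n = 5) against 12.05 ± 0.42 with 30% less food, 2.58 lower (SE 0.36, adjusted p = 0.0338). Lox was lower by 1.65, the progestin and adipoQ receptor Paqr9 by 1.32, Cavin3, a caveolar coat protein, by 1.29, Rcan1, a calcineurin inhibitor, by 1.15 and Col3a1 by 1.12 (adjusted p = 0.0977, 0.0338, 0.0338, 0.0864 and 0.0798). The largest rises were those of Retreg1, a receptor for autophagy of the endoplasmic reticulum, by 1.03, Mtmr11 by 0.83, Frat2 by 0.70, LOC102549726 by 0.66, Zpr1 by 0.57 and the pseudogene Syncrip-ps2, whose probes may read its parent gene, by 0.56 (adjusted p = 0.0798, 0.0783, 0.0981, 0.0783, 0.0783 and 0.0981). For Dbp, Hsd17b2 and Bmal1 the values with 60%, 30% and 15% less food lay side by side, Dbp at 10.77 ± 0.22, 10.37 ± 0.63 and 10.80 ± 0.26, Hsd17b2 at 13.53 ± 0.35, 13.51 ± 0.45 and 13.78 ± 0.20, and Bmal1 at 6.27 ± 0.31, 6.23 ± 0.54 and 5.99 ± 0.40 (SD, n = 5 each). None of the 3 passed either direct test. They do not stand for their whole lists. Against 15% less food 3 of 15 core clock and 4 of 14 clock-driven genes were higher and none lower. Of 20 female-typical genes 5 were higher and none lower, and of 18 male-typical genes 5 were lower and none higher. The shares over all genes were 3.76% higher and 5.79% lower. Against 30% less food none of these lists had a called gene.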

How the data were processed

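Liver RNA of 49 rats was hybridised to Affymetrix rat expression arrays. After a quality check in Expression Console, the authors applied Robust Multi-Array Average (RMA, by affy 1.38.1 under R 3.0.1) and deposited whole-number intensities on a linear scale. Rounding makes steps of 0.17 on the log2 scale at the lowest intensity and 0.017 at the median. Here the deposited intensities were turned into log2 values, and array medians lay between 6.34 and 6.43. Of 31042 probe sets, 436 with several gene symbols and 9780 with none were left out of tests by gene. The brightest probe set stood for each of 14217 genes, 4525 of which have several.

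Groups were compared with limma 3.58.1 (R 4.3.3), in place of the hierarchical EBarrays model that the methods name, which could not be run. Genes were called at a Benjamini-Hochberg adjusted p under 0.1, over all genes. The interaction used the 4 groups of both days. Genes and lists were chosen with earlier results of these data known. Named were the 12 largest rises and falls without overlap, up to 4 called members of each list with those needed for its role, the 6 largest in each direction of the other comparisons, and all genes singled out by the study. Tables used Python 3.11.15, numpy 2.4.6, pandas 2.3.3 and matplotlib 3.10.9, and the fit was tested on simulated data. Alternatives were the threshold, a 1.5-fold minimum, 1 fit of all groups, dim genes, probe sets, scalings, an offset of 16, array weights, empirical Bayes and leaving out each rat.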

Additional observations from a re-analysis of the deposited data

Results flagged for a closer look

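In 24 of 440 groups of 5 rats, made up of the 220 named genes in both groups at day 14, a single rat lay far from the other 4 (its gap to the nearest rat was over 0.71 of the group's range). Chance gives about 1 in 20. Values are log2 intensities, with the nearest other rat in brackets. With 60% less food the rat set apart was the highest for Plin2 at 11.84 (9.82), Fgf21 at 7.44 (6.13) and Stac3 at 11.08 (8.97). With 60% less food the rat set apart was the lowest for Tef at 9.50 (9.73), Insig2 at 10.06 (11.06), Slc37a4 at 12.43 (12.62), Cyp2c11 at 13.08 (13.85), Nfe2l2 at 9.71 (10.02), Atg14 at 6.32 (6.52), Apoa4 at 12.45 (12.85) and Cgn at 6.38 (6.99). Among the fasted controls it was the highest for Mthfd1 at 11.55 (11.31), Nat1 at 10.14 (9.66), Psmd1 at 9.58 (9.31) and Slc13a4 at 10.47 (9.47). Among the fasted controls it was the lowest for Nr1d2 at 8.08 (9.18), Me1 at 7.94 (8.39), Igfbp2 at 9.80 (11.15), Nr3c1 at 9.14 (9.44), Mbl2 at 12.55 (12.74), Hbb at 12.78 (13.16), Gk at 11.68 (12.06), Retreg1 at 10.42 (10.99) and Syncrip-ps2 at 8.35 (8.87).

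In 45 of the 220 named genes the change with 60% less food differed between day 14 and day 4 by the interaction of diet and day (limma, Benjamini-Hochberg adjusted over all genes). Over all 14217 genes the share was 2.04%. The named genes were chosen in part by this interaction and by their change at day 14, so their higher share is no separate result. Each gene is given with the log2 change at day 14 minus that at day 4, and in brackets the changes at day 14 and day 4 and the adjusted p of the difference. The change was more positive at day 14 in Sult2a6 at 2.70 (3.19, 0.49, adjusted p = 0.0506), Nupr1 at 1.38 (2.17, 0.79, adjusted p = 0.0717), Mthfd1 at 0.45 (1.03, 0.59, adjusted p = 0.0754) and Igfbp1 at 1.92 (1.45, -0.46, adjusted p = 0.0536). It was so too in Irs2 at 1.35 (1.27, -0.08, adjusted p = 0.0243), Gabarapl1 at 0.79 (0.74, -0.05, adjusted p = 0.0107), Klkb1 at 0.47 (0.44, -0.03, adjusted p = 0.0648) and Maff at 1.12 (1.33, 0.21, adjusted p = 0.0423). The same direction held in Klf6 at 0.53 (0.79, 0.26, adjusted p = 0.0837), Nrg4 at 1.58 (1.90, 0.32, adjusted p = 0.000435), Mtmr11 at 0.74 (0.92, 0.17, adjusted p = 0.079) and LOC102549726 at 1.10 (0.88, -0.22, adjusted p = 0.0188). Further such genes were Zpr1 at 0.74 (0.91, 0.16, adjusted p = 0.0261) and Syncrip-ps2 at 1.28 (1.23, -0.05, adjusted p = 0.0107). It was more negative at day 14 in Lox at -3.39 (-4.20, -0.81, adjusted p = 0.0717), Cldn1 at -1.50 (-3.46, -1.96, adjusted p = 0.0616), Slc22a8 at -2.69 (-3.34, -0.65, adjusted p = 0.0506) and Inhba at -1.77 (-3.30, -1.54, adjusted p = 0.0901). Also more negative were Crot at -1.95 (-3.01, -1.06, adjusted p = 0.0243), Kynu at -1.22 (-2.48, -1.25, adjusted p = 0.0468), Abcg5 at -1.18 (-0.75, 0.43, adjusted p = 0.0277) and Abcg8 at -1.64 (-1.25, 0.39, adjusted p = 0.0243). In that direction lay Elovl5 at -1.17 (-1.96, -0.79, adjusted p = 0.0954), Gpam at -0.83 (-1.76, -0.92, adjusted p = 0.0173), Slc16a1 at -0.59 (-2.01, -1.42, adjusted p = 0.0975) and Bdh1 at -1.09 (-1.57, -0.48, adjusted p = 0.084). The difference was likewise negative in Ldha at -0.83 (-1.56, -0.73, adjusted p = 0.0464), Gckr at -1.07 (-2.05, -0.98, adjusted p = 0.0949), Atf5 at -0.87 (-1.91, -1.04, adjusted p = 0.0717) and Cyp2f4 at -0.74 (-0.63, 0.11, adjusted p = 0.0786). Others below 0 were Nat1 at -0.75 (-0.75, 0.00, adjusted p = 0.094), Apoa1 at -0.62 (-0.62, 0.00, adjusted p = 0.0173), Isg20 at -0.74 (-0.77, -0.03, adjusted p = 0.0816) and Inhbc at -1.09 (-1.77, -0.68, adjusted p = 0.0648). To these belonged Alas2 at -1.47 (-1.98, -0.50, adjusted p = 0.0252), Tjp3 at -0.70 (-1.27, -0.57, adjusted p = 0.0946), Hbb at -1.84 (-2.14, -0.31, adjusted p = 0.0243) and Slc13a4 at -2.15 (-2.05, 0.10, adjusted p = 0.0837). The last of these was Paqr9 at -1.12 (-2.17, -1.05, adjusted p = 0.0837). The change was larger in size at day 4 in Thrsp at -1.39 (1.64, 3.03, adjusted p = 0.0243), Srebf1 at -2.05 (-0.26, 1.79, adjusted p = 0.0243), Cyp4a1 at 0.61 (-0.91, -1.52, adjusted p = 0.0901) and Ppp1r3b at -1.95 (-0.20, 1.75, adjusted p = 0.0648). So it was in Rab30 at 1.82 (0.61, -1.21, adjusted p = 0.083) and Rcan1 at -1.40 (-0.43, 0.97, adjusted p = 0.0717).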

How the results depend on the processing

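Between the restricted and the control rats, 1263 genes were higher and 1553 lower. A 1.5-fold minimum left 314 and 379, and all 31042 probe sets gave 2073 and 2455. Leaving out single rats gave 1014 to 1457 higher and 1260 to 1492 lower. The interaction count of 290 became 96 at an adjusted p under 0.05, 148 with a 1.5-fold minimum, 681 in 1 fit of all groups and 461 with array weights (98 to 381 without single rats). Against 30% less food 52 became 6 and 22 under those thresholds, 784 in 1 fit, 29 with the mean of probe sets, 34 after median centring and 211 with array weights (0 to 302). Against 15% less food 1358 became 718, 300 and 2228 in 1 fit (751 to 1723). The cause was not tested, except that stricter thresholds call fewer genes by construction. Higher genes made up 43.9% to 50.3% of calls over the scalings and fits.

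Genes that changed sign were not called. Tdh went from 0.001 to -0.015 after quantile normalization and -0.074 with array weights, Cpt1a from -0.004 to 0.003 after median centring, and Cyp2c11 from -0.082 to 0.013 with array weights. Without single rats Tdh lay between -0.054 and 0.07, Cpt1a between -0.043 and 0.047, Cyp2c11 between -0.167 and 0.087 and Hsd17b8 between -0.014 and 0.027. Of 186 named calls between restricted and control rats, 176 held without any single rat. No paired analysis was possible because the labels give no replicate numbers that groups share. Probe sets that disagree, 5 rats a group and dim intensities limit these values. Without the clock time of necropsy, phase and level of clock genes cannot be told apart.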
